A study of Mus musculus with 6 samples.

Results

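A set of 10 genes of liver methyl-group and serine metabolism was examined in bulk liver RNA-seq: Nnmt, Mat1a, Gnmt, Bhmt, Ahcy, Cbs, Cth, Sds, Sdsl and Shmt1. They were taken by gene symbol from the deposited table, in which each of the 10 symbols marks 1 of 28880 genes, and all 10 passed the filter on low counts, as did 16717 genes in all. The libraries came from livers of wild type male C57BL/6J mice aged 6 to 8 weeks, 3 exposed to ethanol and 3 controls, and all 6 carry the same batch label. Ethanol-exposed mice went without food for 12 h and then received 50% ethanol once by mouth at 6 g/kg, with the liver taken 24 h afterwards. Controls were kept without ethanol, and the sources used here do not say whether they were fasted or gavaged, so ethanol, fasting and gavage cannot be told apart in what follows. Each library is 1 mouse. In whole liver, fewer cells of a type and less RNA per cell cannot be told apart either.

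The methionine cycle supplies the methyl groups that the cell attaches to DNA, proteins, lipids and small molecules. Methionine adenosyltransferase, encoded by Mat1a in the adult liver, turns methionine into S-adenosylmethionine, the methyl donor. Methyltransferases use it up: Gnmt methylates glycine and Nnmt methylates nicotinamide, the vitamin B3 form released when NAD is broken down. Both leave S-adenosylhomocysteine, which Ahcy splits to homocysteine. Homocysteine either regains a methyl group, from betaine through Bhmt or from folate through Mtr, or is drawn off toward cysteine by Cbs and Cth, the transsulfuration enzymes. Serine links the routes, since Cbs joins it to homocysteine, Shmt1 passes its carbon to folate in the cytosol, and Sds, with its paralog Sdsl, deaminates it to pyruvate.

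Promoter sequences were available in the RefSeq table (GRCm38.p6) for 5 of the 10 genes, Ahcy, Bhmt, Cbs, Gnmt and Shmt1. The 250 bases before the annotated start are printed for 3 of them, 1 that rose (Ahcy) and 2 that fell (Cbs and Shmt1), so that genes moving in opposite directions can be compared. Capitals mark matches on either strand to CCAAT (the CCAAT box), GGGCGG (the GC box) and CACGTG (the E-box), and adjoining or overlapping matches merge into 1 run of capitals.
Ahcy, chr2:155074498-155074747, minus strand: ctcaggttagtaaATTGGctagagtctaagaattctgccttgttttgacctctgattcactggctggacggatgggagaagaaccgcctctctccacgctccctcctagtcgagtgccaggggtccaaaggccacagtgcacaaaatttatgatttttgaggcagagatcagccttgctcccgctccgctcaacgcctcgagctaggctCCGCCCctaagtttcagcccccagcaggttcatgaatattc
Cbs, chr17:31637206-31637455, minus strand: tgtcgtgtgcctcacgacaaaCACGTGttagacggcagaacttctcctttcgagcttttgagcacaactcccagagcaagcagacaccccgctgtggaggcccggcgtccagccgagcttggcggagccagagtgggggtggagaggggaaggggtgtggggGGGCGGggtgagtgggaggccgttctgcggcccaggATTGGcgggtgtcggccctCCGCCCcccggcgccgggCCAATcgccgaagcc
Shmt1, chr11:60811266-60811515, minus strand: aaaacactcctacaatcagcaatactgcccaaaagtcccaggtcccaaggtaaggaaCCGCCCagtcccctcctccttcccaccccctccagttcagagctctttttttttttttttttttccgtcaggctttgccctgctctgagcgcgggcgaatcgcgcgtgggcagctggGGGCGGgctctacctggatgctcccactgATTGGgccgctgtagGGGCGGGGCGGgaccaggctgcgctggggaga
The CCAAT box was present in all 3 sequences, in Bhmt and Gnmt as well, and in 33.8% of the 32851 RefSeq promoter windows of this length. The GC box was also present in all 3, but in neither Bhmt nor Gnmt, and in 32.7% of the windows. The E-box was present in Cbs alone of the 5 and in 6.02% of the windows. TATAAA, TGACGTCA, TTCNNNGAA and the palindromic glucocorticoid response element, searched on both strands in the same way, had no match in the windows of the 5 genes and were present in 12.4%, 1.55%, 7.02% and 0.00913% of all windows. The GC content was 52.8% for Ahcy and 68.0% for Cbs, with Shmt1 between them, against a median of 52.4% over all windows.

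Library totals ran from 60514417 to 74210869 counts, so counting error was small for these genes, whose lowest count was 599. Differences between the groups were tested by edgeR's quasi-likelihood test on counts with TMM scaling, two-sided, with Benjamini-Hochberg adjustment over all 16717 genes. A gene is said to rise or fall where this adjusted p was under 0.05, and it is called a differentially expressed gene (DEG) where the log2 fold change was also beyond 1 in either direction. Of the 10 genes, 6 rose and 2 fell, where 43.0% of all genes tested passed the same adjusted p (21.5% higher and 21.5% lower). Of all genes tested 24.2% were DEGs. The 5 DEGs among the 10 genes were all higher in ethanol-exposed mice, a direction in which 10.4% of all genes tested were DEGs. None of the 10 was a DEG in the lower direction, which held 13.8% of genes tested. With library size alone, where the median over all genes was -0.71, Cbs and Shmt1 passed the DEG threshold too, for 7 DEGs in all, where 5.06% of all genes tested were higher DEGs and 32.2% lower ones. CPM did not overlap between the groups for 6 genes that were higher and 2 that were lower, where 59.0% of all genes tested did not overlap (28.0% higher and 31.0% lower). CPM is the count scaled to the TMM-adjusted library total. FPKM, the authors' value per length of transcript and per library, carries no such scaling. On that scale 5 of the 10 genes were higher and 2 lower without overlap, against 66.9% of genes tested (9.45% higher and 57.4% lower). The TMM factors were 0.768 to 0.836 in ethanol-exposed mice and 1.26 to 1.27 in controls, so a gene at equal FPKM in both groups has a higher CPM after ethanol.

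Per unit length, these transcripts spanned a wide range. In control mice the order of mean FPKM was Gnmt, Bhmt, Ahcy, Mat1a, Cth, Sds, Cbs, Nnmt, Shmt1 and Sdsl, from 961 to 6.67. The neighbours whose control values overlapped were Ahcy and Mat1a, Sds and Cbs, and Nnmt and Shmt1. In ethanol-exposed mice the order was Mat1a, Gnmt, Ahcy, Sds, Bhmt, Nnmt, Cth, Cbs, Sdsl and Shmt1, from 1252 to 14.9. There the values did not overlap between Ahcy and Sds, Cth and Cbs, or Cbs and Sdsl, while all other neighbours overlapped. Sds moved from rank 492 to 602 of all genes by FPKM in controls to rank 104 to 113 in ethanol-exposed mice. Together the 10 genes held 0.621% to 0.844% of all FPKM in controls and 0.888% to 1.31% in ethanol-exposed mice.

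**Figure D1:**
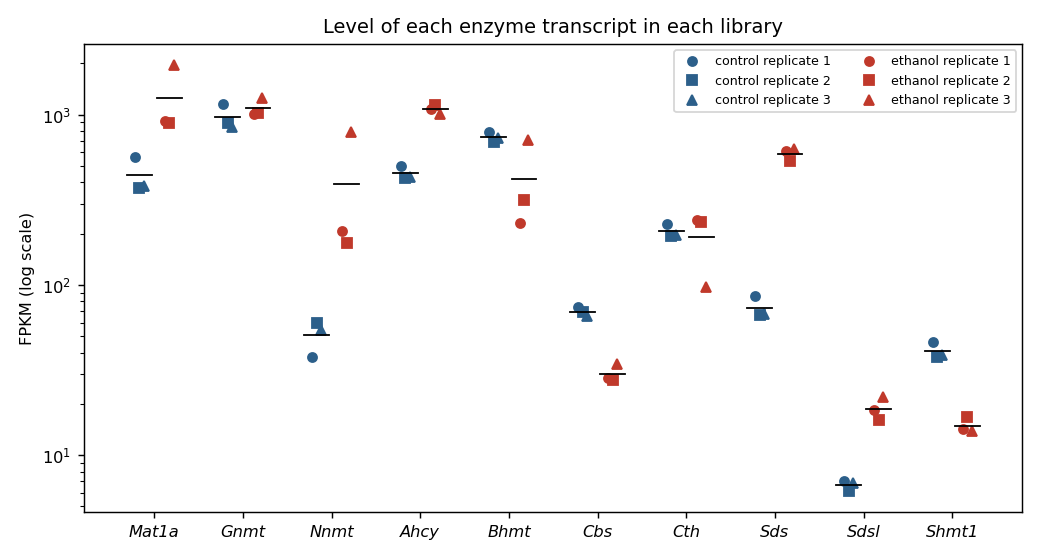
FPKM of the 10 transcripts in each library on a log axis, with controls in blue, ethanol-exposed mice in red, marker shapes for the replicate number and a black line at the group mean. Sds sits between 66.4 and 85.9 in controls and between 534 and 624 after ethanol, while the triangle of ethanol replicate 3 stands away from the other ethanol-exposed mice for Nnmt, Mat1a, Bhmt and Cth.

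Mat1a (ENSMUSG00000037798, chromosome 14, 40826992 to 40846369, plus strand, in the deposited table's coordinates), which makes S-adenosylmethionine in hepatocytes, was at 916, 892 and 1947 FPKM in ethanol replicates 1 to 3 and at 566, 372 and 378 FPKM in the control replicates. Every ethanol-exposed mouse was above every control, and ethanol replicate 3 was the highest. In CPM the means were 5921 ± 3035 after ethanol and 1290 ± 321 in controls (SD, n = 3 per group). The log2 fold change was 2.20 (standard error 0.37, adjusted p = 0.0034, edgeR), or 4.59-fold. With library size alone it was 1.515 (adjusted p = 0.00764, same test).

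Gnmt (ENSMUSG00000002769, chromosome 17, 47036590 to 47040094, minus strand), an abundant liver enzyme that consumes S-adenosylmethionine by methylating glycine, was at 1007, 1017 and 1257 FPKM after ethanol and at 1148, 888 and 848 FPKM in controls. On this scale the groups overlapped, since control replicate 1 lay above ethanol replicates 1 and 2. In CPM they did not, with means of 1787 ± 288 and 983 ± 163 (SD, n = 3 per group). Gnmt rose by 0.86 on the log2 scale (standard error 0.17, adjusted p = 0.00683, edgeR), below the DEG threshold. The call rested on the scaling: with library size alone the log2 fold change was 0.19 (adjusted p = 0.359, same test).

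Nnmt (ENSMUSG00000032271, chromosome 9, 48503177 to 48516453, minus strand) was at 207, 177 and 793 FPKM in ethanol-exposed mice and at 37.6, 59.8 and 54.5 FPKM in controls. All ethanol-exposed mice were above all controls, and ethanol replicate 3 was 4.31 times the mean CPM of the other ethanol-exposed mice. Mean CPM was 850 ± 774 after ethanol and 67.7 ± 15.7 in controls (SD, n = 3 per group), so the SD was nearly as large as the mean. The log2 fold change was 3.65 (standard error 0.64, 95% interval 2.15 to 5.16, adjusted p = 0.00407, edgeR). Without ethanol replicate 3 it was 2.59 (standard error 0.21, adjusted p = 5.74e-05), lower than with it. With library size alone and all libraries it was 2.96 (adjusted p = 0.00473, edgeR).

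Ahcy (ENSMUSG00000027597, chromosome 2, 154901230 to 154916417, minus strand), which hydrolyses S-adenosylhomocysteine, was at 1075, 1143 and 1002 FPKM after ethanol and at 499, 423 and 431 FPKM in controls. The 3 values within each group lay close together and the groups were well apart. Mean CPM was 4063 ± 125 and 1072 ± 96.4 (SD, n = 3 per group). Ahcy rose by 1.92 on the log2 scale (standard error 0.12, adjusted p = 9.88e-05, edgeR), or 3.79-fold. With library size alone the rise was 1.25 (adjusted p = 0.000302, same test).

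Bhmt (ENSMUSG00000074768, chromosome 13, 93753183 to 93774469, minus strand), which remethylates homocysteine with betaine, did not pass the test. It was at 232, 313 and 713 FPKM in ethanol-exposed mice and at 794, 687 and 729 FPKM in controls. Ethanol replicates 1 and 2 were below all controls and ethanol replicate 3 was within their range. In CPM it was above all of them, with 1844, 2313 and 5724 CPM after ethanol and 3865, 3356 and 3568 CPM in controls. The log2 fold change was -0.13 with a 95% interval of -1.06 to 0.81 (adjusted p = 0.816, edgeR), so the interval holds both falls and rises. Without ethanol replicate 3 it was -0.78 (standard error 0.13, adjusted p = 0.00174, same test). With library size alone and all libraries it was -0.81 (adjusted p = 0.111, edgeR).

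**Figure D2:**
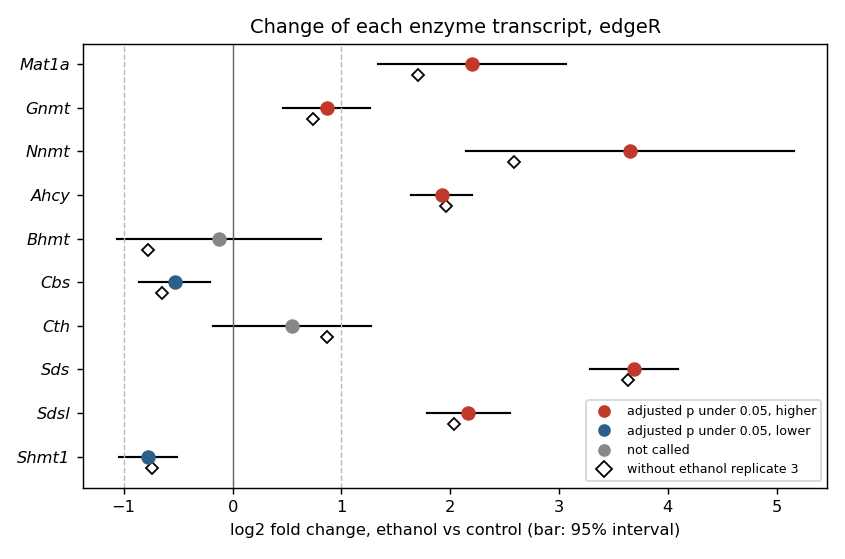
Log2 fold change of each transcript, ethanol-exposed over control mice, by edgeR with TMM scaling, with bars for 95% intervals, red for genes that rose, blue for genes that fell and grey for genes that did not pass. Open diamonds give the value without ethanol replicate 3, which is 2.59 rather than 3.65 for Nnmt and -0.78 rather than -0.13 for Bhmt.

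Of the transsulfuration enzymes, Cbs fell and Cth did not pass the test. Cbs (ENSMUSG00000024039, chromosome 17, 31827868 to 31856212, minus strand), which condenses homocysteine with serine, was at 28.3, 27.6 and 34.3 FPKM after ethanol and at 74.4, 68.8 and 65.4 FPKM in controls. All ethanol-exposed mice were below all controls. In CPM the difference was smaller, 305 ± 48.2 against 441 ± 27.7 (SD, n = 3 per group), and Cbs fell by 0.53 on the log2 scale (standard error 0.14, adjusted p = 0.0195, edgeR). The call was lost without ethanol replicate 1 and without each control in turn (adjusted p of 0.0514 to 0.0674). The size depended on the scaling, at -1.21 with library size alone (adjusted p = 0.000391, edgeR) and -1.43 when scaled to hepatocyte markers (adjusted p = 0.000204).

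Cth (ENSMUSG00000028179, chromosome 3, 157599885 to 157630714, minus strand), which releases cysteine from cystathionine, was at 241, 234 and 96.5 FPKM after ethanol and at 229, 195 and 197 FPKM in controls. Here ethanol replicate 3 was the lowest of all 6 libraries, while ethanol replicates 1 and 2 were the highest. The log2 fold change was 0.55 with a 95% interval of -0.18 to 1.27 (adjusted p = 0.195, edgeR), and 0.86 without ethanol replicate 3 (standard error 0.10, adjusted p = 0.000328). With library size alone the direction turned, to -0.11 with all libraries. Gm43314 overlaps Cth on the same strand and held 63 to 2714 counts after ethanol and 3467 to 6349 in controls, together 8.05% of the Cth total, and how reads were divided between them is not stated.

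Sds and Sdsl lie next to each other on chromosome 5 with 3715 bases between them and are read from opposite strands. Sds (ENSMUSG00000029597, 120614591 to 120621997, plus strand), serine dehydratase, which feeds serine into gluconeogenesis, had the largest log2 fold change of the 10 genes, though within the interval of Nnmt. It was at 612, 534 and 624 FPKM after ethanol and at 85.9, 66.4 and 67.2 FPKM in controls. The groups were far apart relative to their spread, with mean CPM of 1355 ± 171 and 105 ± 15.6 (SD, n = 3 per group). The log2 fold change was 3.69 (standard error 0.17, adjusted p = 5.61e-05, edgeR), or 12.9-fold. With library size alone it was 3.015 (adjusted p = 5.79e-05, same test). Plbd2 and Gm15690 overlap Sds on the opposite strand, and how reads were divided between them is not stated. Plbd2 held 6052 to 7560 counts after ethanol, beside 70852 to 82310 for Sds, and 3955 to 5187 in controls, beside 7271 to 11549 for Sds, so its counts were larger relative to Sds in controls. Gm15690 held 347 to 504 and 170 to 351 counts.

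Sdsl (ENSMUSG00000029596, chromosome 5, 120596251 to 120610875, minus strand) was a low transcript beside Sds, at 18.4, 16.0 and 21.8 FPKM after ethanol and 7.01, 6.18 and 6.83 FPKM in controls. No ethanol-exposed mouse was within the control range. The log2 fold change was 2.17 (standard error 0.16, adjusted p = 0.000192, edgeR), from 8.48 ± 0.543 to 38.1 ± 7.37 CPM (SD, n = 3 per group). With library size alone it was 1.49 (adjusted p = 0.00027, same test).

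Shmt1 (ENSMUSG00000020534, chromosome 11, 60678930 to 60702091, minus strand), the cytosolic enzyme that splits serine to glycine and a folate-bound carbon, was at 14.3, 16.6 and 13.8 FPKM after ethanol and at 45.8, 37.8 and 38.5 FPKM in controls. Every ethanol-exposed mouse was below every control. Mean CPM was 78.1 ± 4.17 and 134 ± 14.3 (SD, n = 3 per group), and Shmt1 fell by 0.78 on the log2 scale (standard error 0.11, adjusted p = 0.00196, edgeR), and by 1.45 with library size alone (adjusted p = 0.000217). Smcr8 overlaps it on the opposite strand and held 1113 to 1433 counts after ethanol, beside 4083 to 5063 for Shmt1, and 1507 to 1871 in controls, beside 9492 to 14125 for Shmt1.

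Ethanol replicate 3 was the library in which several of these genes departed from the rest of their group. On log2 CPM it differed from the mean of the other ethanol-exposed mice by 2.12 for Nnmt, 1.47 for Bhmt, 1.18 for Mat1a and -1.23 for Cth. Over all genes tested, the median size of this difference was 0.44 and its 90th percentile 1.58, a level that Nnmt alone of the 10 genes passed. The difference was -0.08 for Ahcy, -0.09 for Shmt1 and 0.20 for Sds, which were also the 3 of the 10 genes with the smallest SD of log2 CPM among ethanol-exposed mice. Without this library all 10 genes passed the adjusted p, 7 higher and 3 lower, where 52.1% of all genes tested then passed. The DEGs among them were still 5, where 27.4% of all genes tested were then DEGs. Genes whose centred log2 CPM lay nearest to that of Nnmt over the 6 libraries, by Euclidean distance, were Ankrd2 (0.56), Lrg1 (0.58), Mmp8 (0.71), Slc37a1 (0.77) and Erp27 (0.82). Mmp8 and Erp27 were at 0 CPM in all controls and under 1 CPM after ethanol, so their distances depend on the prior count of 2 added before the log, and Ankrd2 was at 0.139 to 0.302 CPM in controls. Lrg1, a secreted acute-phase glycoprotein, was at 1772, 1229 and 4993 CPM after ethanol and at 220, 362 and 325 CPM in controls. The likeness to Nnmt is how it was chosen.

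Ratios of FPKM within a library do not depend on how libraries are scaled, and 6 pairs were compared by an exact two-sided permutation test of log2 ratios. With 3 mice per group the smallest p this test can give is 0.10, so no pair could pass 0.05. Nnmt stood at 0.206, 0.174 and 0.631 of Gnmt in ethanol-exposed mice and at 0.0327, 0.0673 and 0.0643 in controls. The groups did not overlap, and the log2 difference was 2.44 (exact p = 0.10, adjusted over the 6 pairs 0.20). Sds stood at 33.3, 33.3 and 28.6 times Sdsl after ethanol and at 12.3, 10.7 and 9.84 times in controls, a log2 difference of 1.54 (exact p = 0.10), so Sds rose by more than its paralog in every comparison of an ethanol-exposed mouse with a control. Shmt1 stood at 0.523 to 0.639 of Shmt2, the mitochondrial enzyme, after ethanol and at 0.650 to 0.690 in controls, a log2 difference of -0.20 with no overlap (exact p = 0.10), or -0.11 without ethanol replicate 1.

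The remaining pairs overlapped. Mat1a stood at 20.5, 19.2 and 69.4 times Mat2a, the form otherwise used outside adult hepatocytes, in ethanol-exposed mice and at 35.2, 25.5 and 25.5 times in controls (log2 difference 0.08, exact p = 1.00). The sign of that difference turned without ethanol replicate 3, to -0.52. Bhmt stood at 704, 953 and 2347 times Mtr after ethanol and at 690.4, 714 and 555 times in controls, a log2 difference of 0.84 (exact p = 0.20), or 0.34 without ethanol replicate 3. Cbs stood at 0.118, 0.118 and 0.355 of Cth after ethanol and at 0.326, 0.353 and 0.332 in controls, so ethanol replicate 3 was slightly above the controls and the others were well below (log2 difference -0.99, exact p = 0.40). Without ethanol replicate 3 that difference was -1.52.

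**Figure D3:**
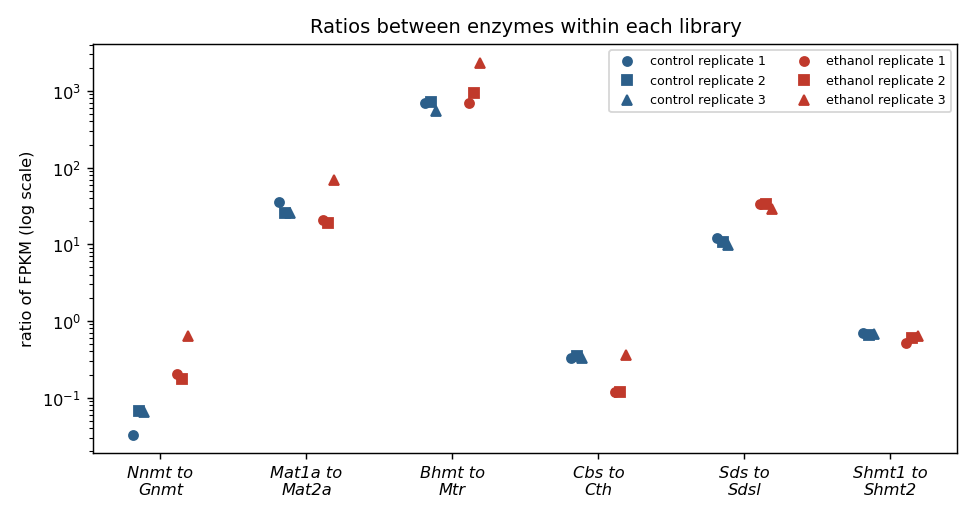
Ratio of FPKM between 2 enzymes within each library on a log axis, with controls in blue, ethanol-exposed mice in red and marker shapes for the replicate number. Sds to Sdsl is 9.84 to 12.3 in controls and 28.6 to 33.3 after ethanol, whereas for Cbs to Cth ethanol replicate 3, at 0.355, lies beside the controls.

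The surrounding pathway genes were read from 7 lists that share the 10 genes, 78 genes in all, of which 75 were tested. Across these lists 10 genes were DEGs in the higher direction and 11 in the lower, beside 10.4% and 13.8% of all genes tested. Without the 10 members, 5 of 65 genes tested were DEGs that were higher and 11 were lower. The lower count depended on the scaling. By library size alone 9 genes were higher DEGs and 29 lower ones, beside 5.06% and 32.2% of all genes tested. At the adjusted p alone 21 of the 75 genes rose and 22 fell, where 21.5% of all genes tested passed in each direction. Without the 10 members, 15 of the 65 genes rose and 20 fell. The same 21.5% stands beside the counts of genes that rose or fell in each list and marker set below. The counts for each list include any of the 10 genes that belong to it.

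In the methyl group cycle 8 of 16 genes rose and 3 fell, where 21.5% of all genes tested passed in each direction. The genes that rose include Mat1a, Gnmt, Nnmt and Ahcy, already described above. The median log2 fold change was 0.30 (median over all genes tested -0.04). Relative to the median of all genes the list stood at 0.35, and at -0.089 with limma on log2(FPKM + 1). Mat2a rose from 57.7 ± 2.95 to 240 ± 55.9 CPM (SD, n = 3 per group), or by 2.06 on the log2 scale (adjusted p = 0.000333, edgeR). Mat2b, the regulatory subunit for Mat2a, rose by 0.47 (adjusted p = 0.00769) but stood at -0.20 with library size alone. Mtr, methionine synthase, fell by 1.15 (adjusted p = 0.00235), from 8.26 ± 1.28 to 3.71 ± 0.157 CPM. Bhmt2, a relative of Bhmt, was at -0.26 (adjusted p = 0.0594), and at -0.93 with library size alone (adjusted p = 0.000535), where it passed the test. It also passed without ethanol replicate 3, at -0.25 (adjusted p = 0.0356). Of the Ahcy-like genes, Ahcyl2 fell by 1.22 (adjusted p = 0.0108) and Ahcyl1 was at 0.06 (adjusted p = 0.619), and at -0.61 with library size alone (adjusted p = 0.00252), where it passed the test.

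Among 7 genes of choline and betaine oxidation, 2 rose and 1 fell. Chdh, which makes betaine aldehyde from choline, fell by 1.72 on the log2 scale (standard error 0.24, adjusted p = 0.00167, edgeR), from 152 ± 22.6 to 46.2 ± 14.4 CPM (SD, n = 3 per group). Among 13 genes of transsulfuration and cysteine use, 3 rose and 6 fell. Cdo1, which oxidises cysteine toward taurine, rose by 1.30 (adjusted p = 0.000537), or by 0.63 with library size alone (adjusted p = 0.00464), below the DEG threshold. Got1, a cytosolic transaminase, rose by 3.79 (adjusted p = 9.93e-05). Gclc, the catalytic subunit for the first step of glutathione synthesis, fell by 1.42 (adjusted p = 0.0202), and Ethe1, which oxidises sulfide-derived sulfur in mitochondria, fell by 1.37 (adjusted p = 0.000653). The Gclc call was lost without ethanol replicate 1 and without each control in turn (adjusted p of 0.0527 to 0.0635).

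In folate metabolism 15 of 16 genes were tested, and 3 rose and 7 fell, where 21.5% of all genes tested passed in each direction. The median log2 fold change was -0.58. Set against the median of all genes this was -0.53, and -0.28 without ethanol replicate 3. The DEGs included Mthfd1l at 2.31 and Mthfd2 at -1.39, both mitochondrial and both scarce, with group means of 0.449 to 2.23 CPM for Mthfd1l and 0.827 to 2.17 CPM for Mthfd2. The Mthfd2 call was lost without control replicate 2 (adjusted p = 0.0757) and without control replicate 3 (adjusted p = 0.0697, edgeR). Shmt2 fell by 0.58 (adjusted p = 0.00896, edgeR). Of the 12 genes of serine, threonine and glycine breakdown, 11 were tested, and 3 rose, Sds and Sdsl among them, and 3 fell. Amt, the aminomethyltransferase of glycine cleavage, fell by 1.58 (adjusted p = 0.000523). Of the 3 serine synthesis genes, neither Psat1 nor Psph passed the test and Phgdh was too low to be tested.

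Of 16 genes of nicotinamide and NAD metabolism tested, 3 rose, Nnmt itself among them, and 4 fell (median log2 fold change -0.16). Set against the median of all genes this was -0.12, and -0.00047 without ethanol replicate 3. Nampt, which recycles the nicotinamide that Nnmt would methylate, rose by 1.78 (standard error 0.24, adjusted p = 0.00141, edgeR), from 25.9 ± 0.532 to 88.7 ± 28.4 CPM (SD, n = 3 per group). It was at 0.88 when scaled to hepatocyte markers (adjusted p = 0.012), below the DEG threshold. In ethanol replicate 3 Nampt was the lowest of the ethanol-exposed mice, at 57.4 CPM, where Nnmt was the highest. Nmnat1, the nuclear enzyme of the last step to NAD, fell by 1.55 (adjusted p = 0.00245), Parp1, which consumes NAD in DNA repair, fell by 1.33 (adjusted p = 0.00232), and Aox3, an aldehyde oxidase, fell by 1.22 (adjusted p = 0.0203). The Aox3 call was lost without each control in turn (adjusted p of 0.0569 to 0.0661).

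**Figure D4:**
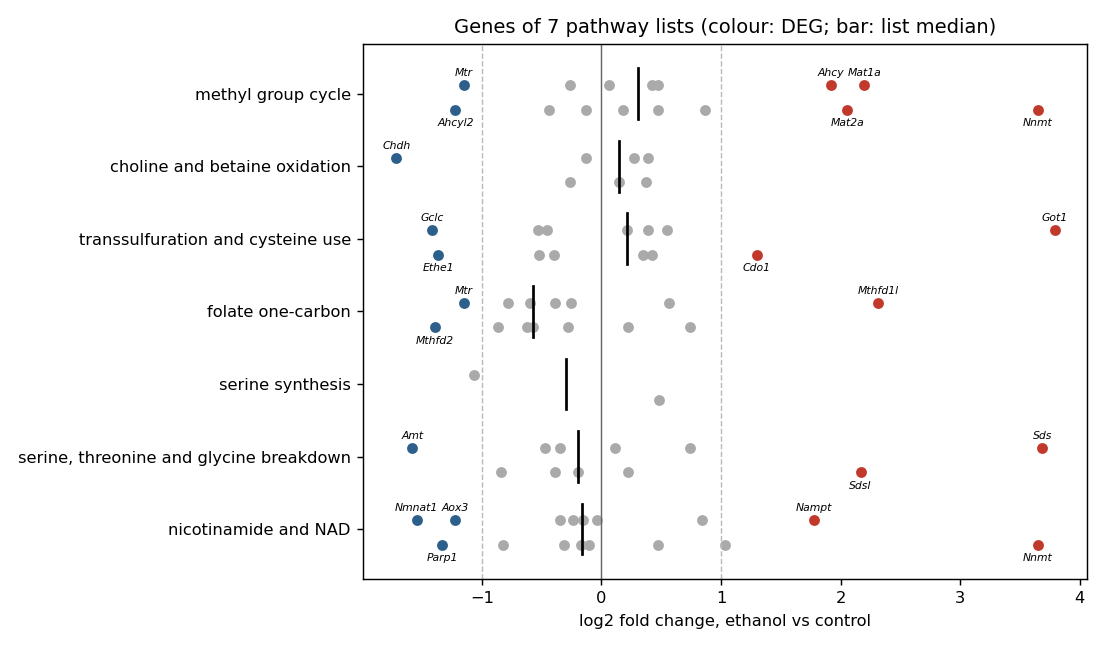
Log2 fold change, ethanol-exposed over control mice, of genes tested in 7 pathway lists, 1 point per gene, with 1 gene counted in the medians but not drawn, red and blue for DEGs that were higher and lower, grey for the rest and a black bar at the list median. Nnmt, Sds and Got1 lie between 3.65 and 3.79, and Chdh lies lowest of the genes drawn, at -1.72.

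Marker genes were set beside these results. Hepatocyte markers rose for 9 of 10, with a median log2 fold change of 0.79 and a summed level of 153837 to 160194 CPM after ethanol and 82188 to 94217 CPM in controls. The 10 include Tat, which rose by 2.13 on the log2 scale (adjusted p = 0.000173, edgeR), more than the median of the set. Whether the set follows hepatocyte content was not tested. Scaled to these 10 markers, a setting chosen after seeing the data, Nnmt, Mat1a, Ahcy, Sds and Sdsl still rose, with log2 fold changes of 2.76, 1.32, 1.03, 2.79 and 1.27, Cbs and Shmt1 still fell, and Gnmt stood at -0.027 (adjusted p = 0.895, edgeR). Neutrophil markers rose for 3 of the 4 tested, from a summed 1.15 to 1.57 CPM in controls to 2.71 to 13.7 CPM after ethanol. S100a9, a neutrophil marker, was at 0.834, 1.68 and 6.21 CPM in the ethanol replicates, highest in replicate 3, where Nnmt was at 1743 CPM. Erythroid markers summed to 403 to 599 CPM after ethanol and to 142 to 175 CPM in controls, with 2 of the 3 tested rising. Of the Kupffer cell markers 1 of 8 fell and none rose, of the endothelial markers 2 of 7 rose and 3 fell, and of the stellate cell markers 3 of 7 rose and 1 fell. Of the cholangiocyte markers 1 of the 5 tested rose, of the B cell markers 1 of 4 fell, of the pancreas markers the 1 tested fell, and of the 2 T cell markers tested neither passed. Of the periportal hepatocyte markers 3 of 8 rose and 2 fell, and of the pericentral ones 2 of 8 rose and 1 fell. The part of these cell types in the changes of the 10 genes was not tested.

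Transcript length, as implied by the deposited counts and FPKM, was 1.3 to 3.7 kb for the 6 genes that rose and 4.2 kb for Shmt1 and 8.0 kb for Cbs, which fell. With each library's trend with length removed, a setting also chosen after seeing the data, Shmt1 was at -0.63 (adjusted p = 0.00528, edgeR) and Cbs at -0.35 (adjusted p = 0.0780), and the 6 genes that rose kept their calls.

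**Figure D5:**
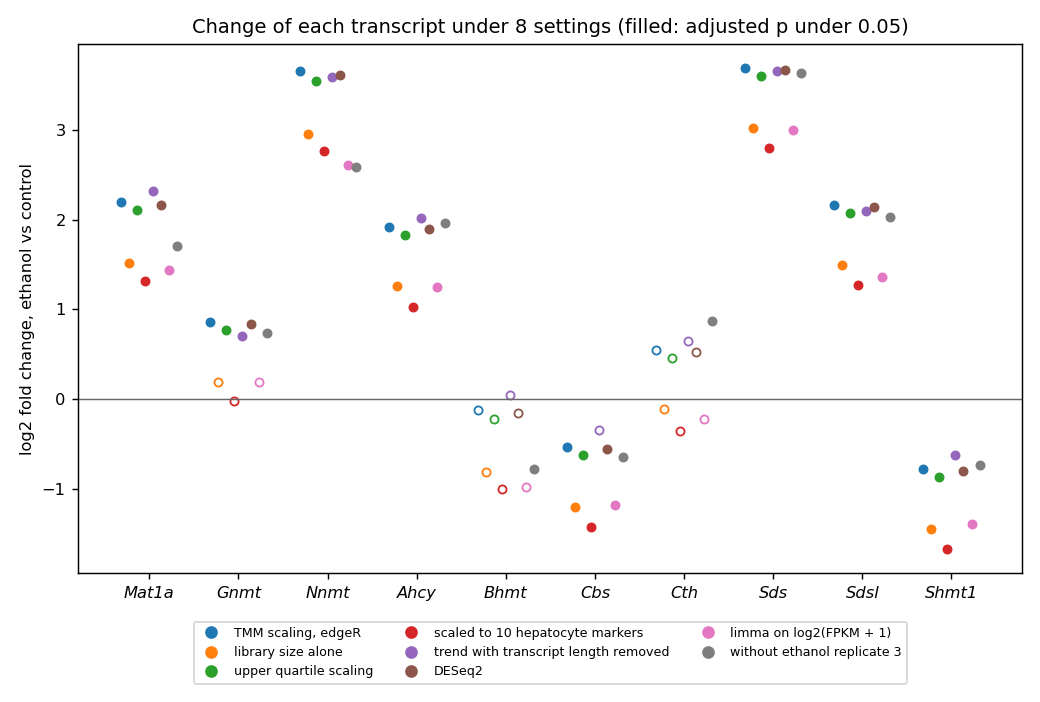
Log2 fold change of the 10 transcripts, ethanol-exposed over control mice, under 8 settings of scaling, tool and libraries, with filled points where the adjusted p was under 0.05. Nnmt, Mat1a, Ahcy, Sds and Sdsl stay above 1 in all 8 settings and Shmt1 stays below 0. Gnmt and Cth come down to or below 0 when scaled to hepatocyte markers, and Cth also with library size alone and with limma on log2(FPKM + 1).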

How the data were processed

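Liver RNA from 6 mice was sequenced on an Illumina NovaSeq. Per Ensembl gene, the authors deposited whole-number read counts, not normalized, and FPKM values, scaled to transcript length and library size. The authors removed adaptor, low-quality and ambiguous reads before alignment; the aligner, the counting tool and strand use are not given in the sources used here. The submitters' processing notes name GRCm38 and mm10, but none of the 10 genes starts where the GRCm38 annotation puts it (0 of 10), so positions are given in the table's coordinates and its build is left unnamed. Only promoter sequences are on GRCm38.p6. A further 1 column of counts matched no library and was not used.

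Groups and replicate numbers came from the sample titles. The 10 genes, lists and tests were chosen with earlier results of these data known. Counts were filtered (filterByExpr), TMM-scaled and tested with edgeR 4.0.16 in R 4.3.3, and standard errors were taken from the fold change and F statistic. The common biological coefficient of variation was 0.299. Alternatives used other edgeR scalings, no filter, limma 3.58.1 on log2(FPKM + 1) or log2(FPKM + 0.1), DESeq2 1.42.0, the replicate number as a block, and each library left out. Scripts were tested on simulated data with 200 changed genes. Named genes are the 10, the isoenzymes or partners set beside them, list genes that are DEGs, and the 5 genes nearest to Nnmt. Of the list genes, 1 DEG is counted but not reported here by name. Replicates differed beyond sampling noise (chi-square divided by its degrees of freedom, 54.4 to 521).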

Additional observations from a re-analysis of the deposited data

How the results depend on the processing

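The log2 fold changes of Nnmt, Mat1a, Ahcy, Sds, Sdsl and Shmt1 kept their direction and their side of the adjusted p threshold under every alternative run. Of 160 alternative values for the 10 genes, 142 kept both. Leaving out a library changed the call or direction for Bhmt, Cbs and Cth, and the scaling for Gnmt and Cth. The median over all genes was -0.04 with TMM, -0.71 with library size alone and -0.94 when scaled to hepatocyte markers. Gnmt lost its call with library size alone (0.19) and with limma on log2(FPKM + 1) or log2(FPKM + 0.1) (0.19 for both), and was at -0.027 scaled to hepatocyte markers. Cth was at -0.11, -0.23, -0.23 and -0.36 under the same 4 settings. Mat2b was at -0.20, -0.17, -0.20 and -0.43 under them, the last a fall that passed the test (adjusted p = 0.00688, edgeR), and Ahcyl1 at -0.61, -0.57, -0.60 and -0.83, or at -0.033 with upper quartile scaling. Bhmt2 passed the test at -0.93, -0.92, -0.93 and -1.16 under them, and at -0.36 with upper quartile scaling. Cdo1 stood at 0.63, 0.62, 0.63 and 0.41, short of a DEG, as were Nampt with limma on log2(FPKM + 1) (0.94) and scaled to hepatocyte markers (0.88), and Mthfd1l with limma on log2(FPKM + 1) (0.29). Of the 10 genes 7 were DEGs under these 4 settings, with Cbs and Shmt1 added, where 5.06%, 2.44%, 4.40% and 4.07% of all genes tested were higher DEGs and 32.2%, 10.2%, 29.7% and 41.1% lower ones. List DEGs numbered 9, 7, 9 and 8 higher and 29, 21, 25 and 38 lower under these 4 settings. With the length trend removed Bhmt was at 0.047, Cbs was at -0.35 and lost its call, and 1 of the 10 genes fell. With each library left out, the log2 fold change ran from -0.78 to 0.15 for Bhmt (0.15 without ethanol replicate 1 and 0.07 without ethanol replicate 2), from -0.65 to -0.44 for Cbs and from 0.32 to 0.86 for Cth. The Mat1a to Mat2a log2 difference ran from -0.52 to 0.41, and the number of the 10 genes that fell from 1 to 3. Of 112 alternative list medians relative to all genes, 34 moved by more than the spread. The cause was not tested.

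Ethanol and control mice share replicate numbers only as names. Deviations of same-numbered libraries from their group means had correlations of -0.0349, -0.0211 and -0.0169 over genes. With the replicate block, 5 of the 10 genes were DEGs, as without it, and Nnmt was at 3.30 (adjusted p = 0.00797, edgeR). Among other named genes Mthfd2 lost its call with the block (-1.41), Gclc without ethanol replicate 1 and without each control in turn, Aox3 without each control in turn, and Mthfd2 without control replicate 2 or 3. The number of mice per group, more than depth, limits the precision here.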
